A study of Mus musculus with 4 samples.

Results

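Wild-type CD8-equivalent dendritic cells (DCs) were compared with wild-type CD4-equivalent DCs, gene by gene, on 1 array each. Both arrays carry RNA of C57BL/6 bone marrow with intact miR-142 (miR-142+/+, wt), cultured for 8 days with Flt3 ligand at 200 ng/ml, which was added again during the culture. Cells of both groups were sorted as B220- CD11c+. The CD4-equivalent group was gated as CD172+ CD24low CD11b+, and the CD8-equivalent group as CD172- CD24+ CD11blow. The corresponding subsets of miR-142-/- (ko) C57BL/6 marrow, grown and sorted the same way, fill the other 2 of the 4 arrays and are used here only beside the wt values. The number of animals and cultures per array is not stated, and neither is whether 1 culture gave both subsets. A gene entered the comparison when the higher of its 2 wt values reached 5.68 on the log2 scale, the median of all probe sets with 1 gene symbol. This floor left 9998 of 19938 genes, and no expression difference was used to choose them. With 1 array a side, a difference has no replicate check, so sizes are given without p-values.

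Conventional DCs form 2 lineages. The lineage called cDC1, to which CD8-equivalent cells belong, depends on the transcription factors IRF8 and BATF3, takes up dead cells and presents their antigens on MHC class I to CD8 T cells. The lineage called cDC2, to which CD4-equivalent cells belong, relies more on IRF4, carries CD172a (SIRPα) and CD11b, and is known for activating CD4 T cells through MHC class II. Flt3 ligand cultures yield both lineages together with plasmacytoid DCs, which are largely B220-positive and are known for Siglec-H, BST2 and the transcription factor TCF4. Cultured CD4- and CD8-equivalent cells need not carry CD4 or CD8α themselves.

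All differences below are CD8-equivalent minus CD4-equivalent on the log2 scale, so a positive value means a higher level in CD8-equivalent DCs. The genes of the sort gates followed the labels. Sirpa, which encodes CD172a, read 12.11 on the CD4-equivalent and 9.69 on the CD8-equivalent array, and Itgam, which encodes CD11b, read 12.02 and 10.01. Cd24a was on the other side, at 10.98 and 12.76. Clec9a, a receptor for the actin of dead cells and a marker of cDC1, read 7.78 and 10.89. Itgax, which encodes CD11c and was required in both gates, differed by 0.52, and Ptprc, whose B220 form was gated out, by -0.44. The genes Cd8a (4.69 and 5.13) and Cd4 (4.70 and 4.63) lay below the floor on both arrays. Sirpa and Itgam therefore remained well above the floor in cells gated as CD172- CD11blow. Mir142 read 10.37 and 9.87 on the wt arrays and 4.92 and 4.79 on the ko arrays.

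Most genes differed little between the subsets. The median difference over the 9998 genes was 0.04, their standard deviation was 0.54, and 94.8% of them differed by less than 2-fold. At least 2-fold higher in CD8-equivalent DCs were 210 genes, 2.1% of those compared, and 314 genes, 3.14%, were lower by 2-fold or more. Counts of list members below are to be read beside both shares. At 4-fold the counts were 37 and 88, at 8-fold 10 and 30, and at 16-fold 0 and 4. The larger differences therefore lay more often on the CD4-equivalent side. Of the 210 higher genes, 45 were under the floor in CD4-equivalent DCs, and 70 of the 314 lower genes were under it in CD8-equivalent DCs. RMA compresses ratios near background, so a difference from such a level understates the true ratio. At the edges, Praf2 (7.88 and 8.89) was just inside 2-fold and Anapc15 (8.56 and 9.56) just outside. On the other side Slc15a3 (9.02 and 8.02) was just inside and Bmf (9.32 and 8.32) just outside. Mir29a (5.68 and 5.58) was just inside the floor and Chpf (5.47 and 5.68) just outside. The plot of each gene's levels shows the narrow band of most genes, with part of the marker genes outside it and part within.

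**Figure D1:**
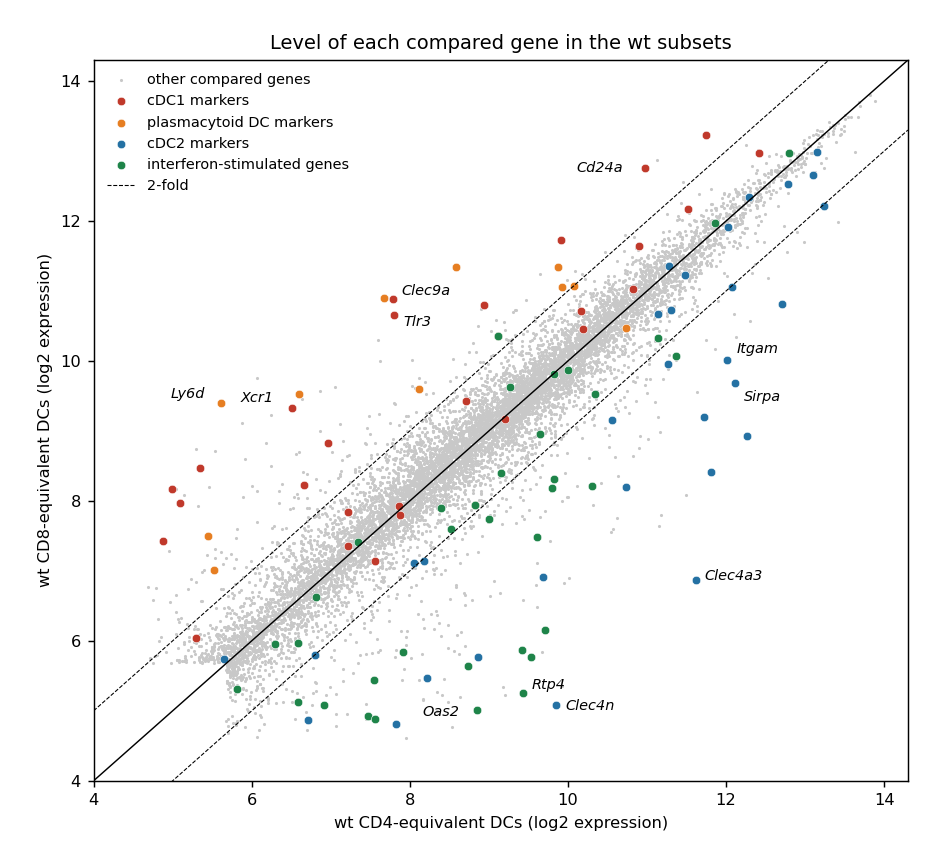
Each point is 1 of the 9998 compared genes, with its log2 expression in wt CD4-equivalent DCs on the x axis and in wt CD8-equivalent DCs on the y axis. The solid line marks equal levels, the dashed lines 2-fold, and a gene of several lists has the colour of the list named last. Of the cDC1 markers 13 of 27 and of the plasmacytoid markers 11 of 13 lie above the upper dashed line, and 19 of 31 cDC2 markers and 18 of 36 interferon-stimulated genes lie below the lower one.

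The largest difference in favour of CD8-equivalent DCs was that of Ly6d, a GPI-anchored surface protein found on lymphoid-primed progenitors and plasmacytoid DCs, which read 5.61 on the CD4-equivalent and 9.39 on the CD8-equivalent array (3.78, or 13.7-fold). Gem, a small GTP-binding protein that restrains calcium channels, read 6.06 and 9.76 (3.70). Adgrg1, the adhesion receptor GPR56, read 5.30 and 8.74 (3.44). In CD4-equivalent DCs, Ly6d and Adgrg1 lay below the floor. Pmepa1, a TGF-beta-induced inhibitor of SMAD signalling, followed with 3.24 and Atp1b1, a subunit of the sodium pump, with 3.22. Next came the C2-domain protein gene Mctp2 and the germinal-centre signalling adaptor gene Gcsam (3.17 each) and Il12a, the p35 subunit of IL-12 (3.13). The profilin receptor Tlr12 (3.12), Clec9a (3.11), the retrotransposon-derived Rtl8c (2.99), the cadherin Cdh17 (2.95), the chemokine receptor Ccr9 (2.93), the sorting nexin Snx22 (2.89) and the receptor for viral RNA Tlr3 (2.85) made up the rest of the 15 highest.

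The largest difference in favour of CD4-equivalent DCs was that of Clec4n, which encodes the fungal receptor dectin-2. It read 9.85 on the CD4-equivalent and 5.08 on the CD8-equivalent array, 27.3-fold lower in the latter. Clec4a3, of the family of inhibitory lectins around DCIR, read 11.61 and 6.87 (-4.74). Cd209c, a relative of DC-SIGN, read 9.92 and 5.36 (-4.56), and Rtp4, an interferon-induced receptor chaperone, 9.43 and 5.26 (-4.18). These were the 4 genes past 16-fold, and Clec4n, Cd209c and Rtp4 ended below the floor. The next were coagulation factor F13a1 (-3.99), the antiviral oligoadenylate synthetase gene Oas2 and the mannose receptor gene Mrc1 (-3.84 each), Gm9733 (-3.83), the cornified-envelope protein gene Scel (-3.77) and the synthetase-like Oasl2 (-3.76). Ddx58, the RNA sensor RIG-I (-3.57), Ifit3, which binds foreign RNA (-3.55), the membrane protein gene Ms4a6d (-3.51), the fatty acid elongation enzyme gene Hacd4 (-3.43) and the galactose-type lectin Clec10a (-3.41) completed the 15 lowest. Lectins and interferon-induced genes thus made up much of this end. The plot of the extremes gives their levels on all 4 arrays.

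**Figure D2:**
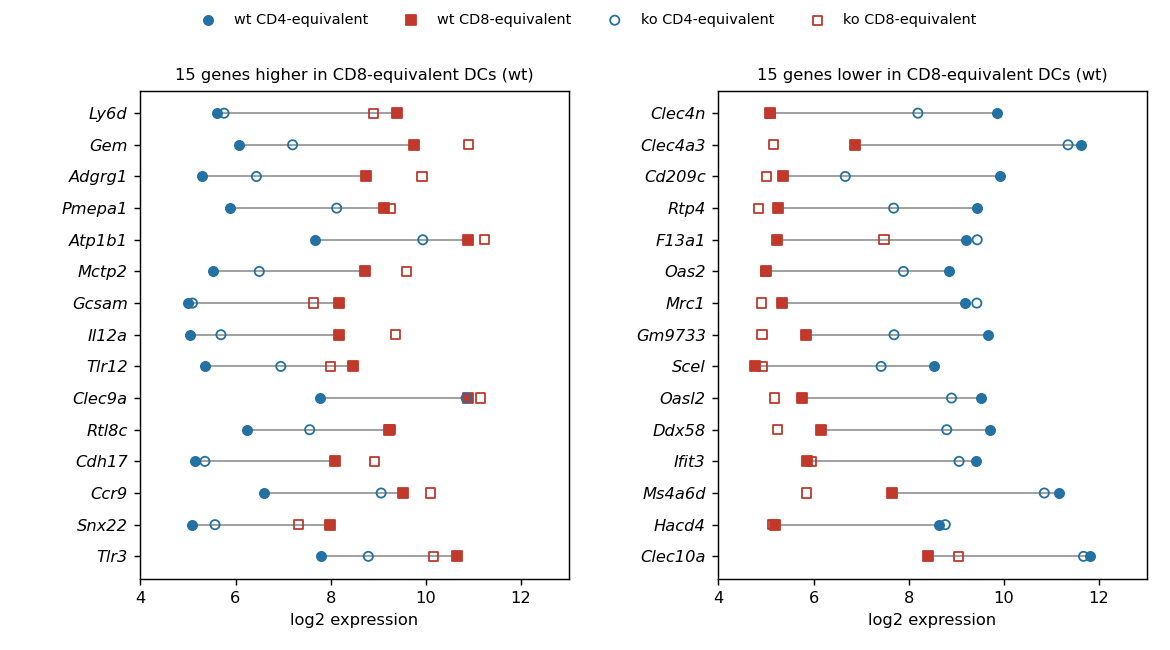
The 15 genes with the largest positive (left) and largest negative (right) wt difference, with log2 expression on the x axis. Filled circles are wt CD4-equivalent, filled squares wt CD8-equivalent DCs, open symbols the same subsets of ko, and a grey line joins the wt values. All 30 genes kept their direction in ko, although Clec9a was nearly level there, at 10.85 and 11.15.

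Markers of the cDC1 lineage stood mainly higher in CD8-equivalent DCs. Of 39 measured markers, 27 were compared, of which 13 were at least 2-fold higher and 0 lower, with a median of 0.75. All 27 reached the floor on the CD8-equivalent but 22 on the CD4-equivalent array, where Gcsam, Tlr12, Snx22 and Itgae lay below it. The median was 0.68 with the floor on both values and 0.55 over all 39 measured. Besides Clec9a, Tlr12, Tlr3, Snx22 and Gcsam, the 13 higher markers included Xcr1, the receptor for the chemokine XCL1, which read 6.50 and 9.33. Itgae, the CD103 integrin chain, read 4.87 and 7.42. Others were the adhesion protein gene Hepacam2 (1.87), the creatine synthesis enzyme gene Gatm (1.86), the late endosome GTPase gene Rab7b (1.82), the sulfotransferase gene Sult1a1 (1.56) and the interferon-inducible Ifi205 (1.49). Wdfy4, which is needed for cross-presentation in cDC1, was 0.74 higher. Several genes listed as markers did not separate the subsets, among them the adhesion molecule Cadm1 (7.22 and 7.36), the scavenger receptor Cd36 (-0.04) and the inhibitory receptor Btla (0.21). Ly75, which encodes DEC-205, and the langerin gene Cd207 were among 12 markers below the floor on both arrays. Plasmacytoid DC markers stood higher beside the cDC1 markers, with a summed linear signal (the list's values taken off the log2 scale and added) of 6820 on the CD4- and 16874 on the CD8-equivalent array, and their part in these differences was not tested. In bulk RNA of this kind, fewer cells of a type and less RNA per cell cannot be told apart.

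Markers of the cDC2 lineage stood lower. Of 31 compared markers, 19 were at least 2-fold lower in CD8-equivalent DCs and 0 higher, with a median of -1.31. The floor was reached by 30 on the CD4- and 27 on the CD8-equivalent array. The median was -1.03 with the floor on both values, and also over all 35 measured. After Clec4n, Clec4a3 and Clec10a, the lectin Clec4a1 (-3.34) and the G-CSF receptor Csf3r (7.83 and 4.81) had the largest differences. The lectin Mgl2 differed by -2.74 and the cation channels Tmem176a and Tmem176b by -2.53 and -1.90. Cd209a, the mouse DC-SIGN gene, differed by -2.52, the fractalkine receptor Cx3cr1 by -1.40 and the M-CSF receptor Csf1r by -1.31. The monocyte chemokine receptor Ccr2 was nearly even (12.78 and 12.53), as were Cd7 (0.05) and the inhibitory lectin Clec12a (0.08).

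Of 9 compared transcription factors of cDC1, 7 lay above 0, and of 14 of cDC2, 12 lay below 0, but few passed 2-fold. Irf8 read 11.13 and 12.87 (1.74) and its partner Batf3 6.06 and 7.70 (1.63). Both are required for cDC1, and they were the 2 past 2-fold. Id2, which restrains E proteins (0.83), the MYC relative Mycl (0.85) and Zfp366, known as DC-SCRIPT (0.75), were higher by less, and Nfil3 was even at 0.01. Cbfa2t3 (-0.38) and Batf (-0.12) ran against their list. Irf4, the factor most associated with cDC2, read 10.62 and 7.76, which is 7.29-fold lower in CD8-equivalent DCs. Relb (-1.15) of the alternative NF-kB pathway, the repressor Prdm1 (-1.13) and the myeloid factor Cebpa (-1.03) were the other 3 of 14 cDC2 factors at least 2-fold lower. Zeb2 differed by -0.92 and Klf4 by -0.28. Tcf4, which the cDC2 list holds and which specifies plasmacytoid DCs, ran against its list at 1.00. Of 11 factors that both lineages use, 9 were under 2-fold, and Nr4a3 (-1.45) and Relb, which is also on the cDC2 list, were lower. Spi1, which encodes PU.1, differed by -0.06, Zbtb46, the factor of conventional DCs, by -0.13, and Bcl11a by 0.21.

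C-type lectins, which bind sugars of microbes and of dying cells, included many of the genes lower in CD8-equivalent DCs. Of 22 compared lectin genes, 16 were at least 2-fold lower in CD8-equivalent DCs, 2 were higher and 4 were under 2-fold, with a median of -2.49. The floor bears on this value, as all 22 reached it on the CD4-equivalent but 15 on the CD8-equivalent array: the median was -1.91 with the floor on both values and -0.90 over all 32 measured lectins. The higher ones were Clec9a and the activation antigen Cd69 (1.26). The mannose receptor Mrc1 read 9.17 and 5.34. Clec4e, which encodes the mycobacterial receptor Mincle (-2.26), Clec5a (-1.42) and the beta-glucan receptor Clec7a, or dectin-1 (-1.03), were also lower. The dectin-related Clec4d (-0.76) and Clec2d (-0.42) were under 2-fold. Another 10 lectin genes, Cd207 and Ly75 among them, lay below the floor on both arrays. Monocyte and macrophage markers, of which Mrc1 is one, stood lower beside the lectins, with a summed linear signal of 23756 on the CD4- and 12352 on the CD8-equivalent array, and their part in this and in the groups lower in CD8-equivalent DCs below was not tested. The Clec4a and Cd209 genes are close paralogs whose probes can share sequence, so the split of signal among them is uncertain.

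Toll-like receptors had members on both sides. Tlr3 read 7.81 and 10.66 and Tlr12 5.35 and 8.47, the 2 of 18 compared receptors and adaptors at least 2-fold higher in CD8-equivalent DCs. Tlr8, an RNA sensor, read 8.70 and 5.93. Tlr13, which recognises bacterial ribosomal RNA, differed by -1.39, Tlr1 of the lipoprotein receptors by -1.18 and the lipopolysaccharide co-receptor Cd14 by -1.10. Tlr2 read 9.81 and 8.81, just under 2-fold, and its partner Tlr6 differed by -0.95. Tlr4 (-0.87), Tlr7 (-0.80) and Tlr9 (-0.53) were lower by less, and the median of the list was -0.66. The adaptors Myd88 (-0.30) and Ticam1 (-0.44), and Unc93b1, which carries the endosomal receptors (0.16), were close to even. The RNA helicase sensors of the cytosol Ddx58 and Ifih1 were lower in CD8-equivalent DCs, and the related Dhx58 differed by -0.69, under 2-fold. Ddx58 read 9.72 and 6.15, and Ifih1, which encodes MDA5, 9.61 and 7.49. The nucleic acid sensor Zbp1 differed by -2.07. The DNA sensor Cgas (0.15), its downstream partner Sting1 (0.17) and the adaptor Mavs (0.02) differed by less than the standard deviation of 0.54 over all genes.

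Interferon-stimulated genes, which cells switch on when type I interferon binds its receptor, were lower in CD8-equivalent DCs as a group. Of 36 compared members, 18 were at least 2-fold lower, 1 was higher and 17 were under 2-fold. The median was -1.10, against 0.04 over all genes. Oas2 read 8.85 and 5.01, Oasl2 9.53 and 5.76, and Ifit3 9.42 and 5.87. Xaf1 (-3.09), Oas1a (-2.68), Ifit1 (-2.54), Oas3 (-2.10), Ifi27l2a (-2.09) and Ifit2 (-1.83) followed. All 36 reached the floor in CD4-equivalent DCs and 27 of them in CD8-equivalent DCs. The median was -0.82 with the floor on both values and -0.90 over all 38 measured. Other members barely differed, among them Stat2 (-0.01), Cmpk2 (0.07), Trim30a (0.11) and Irf9 (-0.12), and the antiviral Mx1 was -0.50. The member higher in CD8-equivalent DCs was Bst2, which tethers viruses to the cell and is also a plasmacytoid marker (9.12 and 10.35). The receptor subunits Ifnar1 (-0.07) and Ifnar2 (0.07) were even. Oas and Ifit genes are close paralogs, so their individual values are uncertain.

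Promoters of these genes are shown because the interferon-responsive factors bind a short repeated element, searched here as GAAANNGAAA on both strands. The windows are RefSeq sequence of the GRCm38.p6 assembly, 80 bases long and lying within the 250 bases before the start site, 5′ to 3′ on the strand of the gene, with matches in capitals. They belong to the list members at least 4-fold lower that have a match before the start site. Matches on the opposite strand start with TTTC.
Ifit3 (chr19:34583355-34583434, + strand): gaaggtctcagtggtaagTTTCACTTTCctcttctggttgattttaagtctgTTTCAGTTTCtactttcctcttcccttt
Oas1a (chr5:120907526-120907605, - strand): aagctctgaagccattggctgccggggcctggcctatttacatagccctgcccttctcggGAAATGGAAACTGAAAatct
Ifit1 (chr19:34640759-34640838, + strand): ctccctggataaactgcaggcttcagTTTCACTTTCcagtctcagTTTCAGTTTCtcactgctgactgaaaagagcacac
Oas3 (chr5:120777690-120777769, - strand): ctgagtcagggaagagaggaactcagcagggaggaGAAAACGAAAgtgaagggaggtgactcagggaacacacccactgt
Ifit3, Oas1a and Ifit1 hold 2 matches each and Oas3 holds 1. Ifit3 and Ifit1 share the same pair of 10-letter matches.

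Of 26 interferon list members with a promoter entry, 14 (53.8%) held the element within 250 bases before to 50 bases after a start site, against 3.81% of 8083 compared genes and 3.99% of all 27025 genes with an entry. Among list members at least 2-fold lower the count was 8 of 12, and among those under 2-fold 5 of 13. Of the 14 that hold it, 8 were thus at least 2-fold lower, Ddx58 and Ifih1 among them. Another 5 were under 2-fold, with Stat2 and Trim30a even, and Bst2 was higher. Oasl2 and Xaf1 were lower and have an entry with no match. Of all genes at least 2-fold lower, 11.1% held it (27 of 244), and 8.19% without the interferon list. Of genes at least 2-fold higher, 5.66% held it (9 of 159). At 4-fold the shares were 19.7% of 71 lower and 0 of 28 higher genes. An element for PU.1 with an IRF partner, GGAANNGAAA, was held by 7.38% of lower, 1.26% of higher and 2.94% of compared genes, and the AP-1 element TGANTCA by 13.1%, 3.77% and 5.80%. Over all 27025 genes with an entry, the shares of these 2 elements were 3.16% and 8.97%. The GAAANNGAAA and GGAANNGAAA elements cannot match the same letters in place. A match is a description of letters and does not show binding.

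Chemokines that were expressed stood lower in CD8-equivalent DCs. Only 8 of 32 measured chemokine genes reached the floor, of which 6 were at least 2-fold lower in CD8-equivalent DCs and 0 higher, with a median of -2.23 (-0.13 over all 32 measured). Ccl9 read 11.18 and 7.80, Ccl5 9.61 and 6.48, and Ccl22, which attracts CCR4-bearing T cells, 8.17 and 5.15. Ccl6 (-2.34), the interferon-induced Cxcl10 (-2.11) and Ccl3 (-1.99) were the others. Receptors split: Xcr1 and Ccr9 were higher in CD8-equivalent DCs, Ccr9 with 6.59 and 9.52, while the chemerin-binding Ccrl2 (-2.70) and Cx3cr1 were lower. Ccr7, which guides mature DCs to lymph nodes, differed by -0.76 and Cxcr4 by 0.70.

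Among cytokines, Il12a stood apart at 5.04 and 8.17, although Il12b, which encodes the other subunit of IL-12, was below the floor on both arrays. The growth factor Vegfa was 1.20 higher. Il15 (-1.52), Tnfsf8 (-1.44), Il18 (-1.39), Tnf (9.42 and 8.16) and the 4-1BB ligand Tnfsf9 (-1.10) were at least 2-fold lower, 5 of 15 compared cytokines. Il1b was close to even at -0.19. Of 31 receptors of cytokines and growth factors, 27 lay below 0, 6 of them by 2-fold or more. The IL-18 receptor subunit Il18rap (8.64 and 6.12), the IL-13 receptor Il13ra1 (-1.44), the TNF receptor Tnfrsf1b (-1.31) and Il21r (-1.11) were among them. Kit, the stem cell factor receptor (8.11 and 9.76), and the IL-7 receptor Il7r (1.05) were higher, and Flt3, the receptor for the cytokine in the culture, was even at -0.12.

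Receptors for antibody and for sialic acid or phosphatidylserine showed members on both sides. Of 8 compared Fc receptors, 5 were at least 2-fold lower in CD8-equivalent DCs and 0 higher. Fcgr1, the high-affinity IgG receptor, read 8.48 and 5.89, and Fcgr3 9.01 and 6.64, while the shared signalling chain Fcer1g was even (-0.11). The inhibitory Fcgr2b differed by -1.01. The Fcgr genes are similar enough that probes can be shared. In the SIRP, CD300, PIR and Siglec group, 8 of 21 genes were lower, such as Cd300ld (-2.18), Cd300lb (-2.01) and Siglece (-1.84). The 4 higher ones were Treml2 (1.70), Lair1 (1.49), Siglech (1.47) and Cd300c (1.14), of which Lair1, Siglech and Cd300c also stand on the plasmacytoid list.

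Genes for uptake and adhesion were also mixed. The apoptotic cell receptor Havcr2, or TIM-3 (1.54), and the integrin chains Itgb3 (1.36), Itgal of LFA-1 (1.49) and Itga6 (1.15) were higher in CD8-equivalent DCs. The lipoprotein receptor Lrp1 (9.61 and 7.11), the engulfment factor Dock1 (-2.04), the integrin chain Itgb5 (-1.28) and the receptor tyrosine kinase Axl (-1.05) were lower. Of 30 actin and migration genes, 29 were under 2-fold and the median was -0.07. The exception was the actin-bundling fascin gene Fscn1, known for the dendrites of mature DCs, at 8.34 and 5.00.

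Antigen presentation genes differed little. All 13 compared MHC class II genes were lower in CD8-equivalent DCs, where 4524 of all 9998 genes lay below 0, yet 12 of them were under 2-fold and the median was -0.36. The exception was H2-Eb2, a class II beta chain, which read 8.35 and 5.27. The class II transactivator Ciita differed by -0.92, H2-Oa by -0.76 and the invariant chain Cd74 by -0.36. H2-Aa and H2-Ab1 were at -0.21 each. Of 22 class I and cross-presentation genes, 15 lay above 0, with a median of 0.10. The peptide editor Tapbpl (0.81), the immunoproteasome subunit Psmb9 (0.76), Wdfy4 (0.74) and the transporter gene Tap2 (0.72) were the highest, and B2m was -0.17. Cybb, the catalytic subunit of the phagosomal NADPH oxidase, was the one member at least 2-fold lower (-1.29). The 13 cathepsins and related genes stayed under 2-fold, from Ctso at -0.86 to Ctsl at 0.72.

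Of 21 costimulatory and coinhibitory genes, 4 were at least 2-fold lower in CD8-equivalent DCs, 1 was higher (Havcr2) and 16 were under 2-fold. Over all compared genes the shares were 3.14% lower and 2.1% higher. Cd40, which receives T cell help, read 8.58 and 6.78, Slamf9 differed by -2.15 and the checkpoint ligand Vsir by -1.35. Cd80 (-0.35), Cd83 (-0.37) and Cd86 (-0.39) were under 2-fold. All 18 compared inflammasome genes lay below 0, 7 of them by 2-fold or more, with a median of -0.84. All 18 reached the floor on the CD4-equivalent but 13 on the CD8-equivalent array, where Nlrp1a lay below it. The median was -0.69 with the floor on both values and -0.77 over all 19 measured. The 7 included the inflammatory caspases Casp4 (8.59 and 6.08) and Casp1 (-1.01), the sensor Nlrp1a (-1.74) and the ATP-gated channel P2rx7 (-1.29). Nlrp3 differed by -0.98, and the adaptor Pycard was even (-0.04). Eicosanoid genes were also lower in part, with 5 of 13 at least 2-fold lower: the prostaglandin receptors Ptger3 (-1.94) and Ptgir (-1.66), the leukotriene receptor Ltb4r1 (-1.88), the cyclooxygenase Ptgs2 (-1.67) and the prostaglandin-degrading Hpgd (-1.05). Ptger2 was the reverse case, at 1.38.

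Genes of cell division were higher in CD8-equivalent DCs by small amounts that ran the same way throughout. All 24 replication genes lay above 0, with a median of 0.81, and all 24 mitosis genes did, with a median of 0.64, against 5474 above 0 of all 9998 genes. Only 3 passed 2-fold: the replication factor Gins1 (7.86 and 9.08), the ribonucleotide reductase subunit Rrm2 (1.05) and the spindle checkpoint gene Mad2l1 (1.10). The helicase subunit Mcm2 was 0.98 higher, the kinase Cdk1 0.78 and the proliferation marker Mki67 0.37. Genes of progenitors were higher as well. Of 9 compared members, 5 were at least 2-fold higher and 0 lower, among them the transcription factor Myb (7.63 and 10.00), Kit, the costimulatory receptor Cd27 (1.61), the lymphoid polymerase Dntt (1.59) and Hoxa9 (1.21). The median was 1.21, but 3 of the 9 reached the floor in CD8-equivalent DCs alone, and it was 0.53 with the floor on both values and 0.36 over all 13 measured. Cd34 was 0.36 higher. The summed linear signal of the progenitor list was 4885 on the CD4- and 6239 on the CD8-equivalent array. Whether the share of immature cells bears on the division genes was not tested.

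Metabolic genes stayed within 2-fold as sets. Of 29 respiratory chain genes, 27 lay above 0, with a median of 0.25 and a highest value of 0.55 for Cyc1, a subunit of complex III. Of 18 cholesterol synthesis genes, 16 lay above 0 with a median of 0.38, led by the farnesyl diphosphate synthase Fdps (0.90). Glycolysis genes were balanced around a median of -0.12, from the lactate exporter Slc16a3 (-0.93) to the phosphofructokinase Pfkp (0.66). In lipid handling, the nuclear receptor Pparg (8.14 and 6.58) and the efflux pump Abca1 (-1.17) were the members at least 2-fold lower. The plot of the lists sets these narrow sets beside the broad ones.

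**Figure D3:**
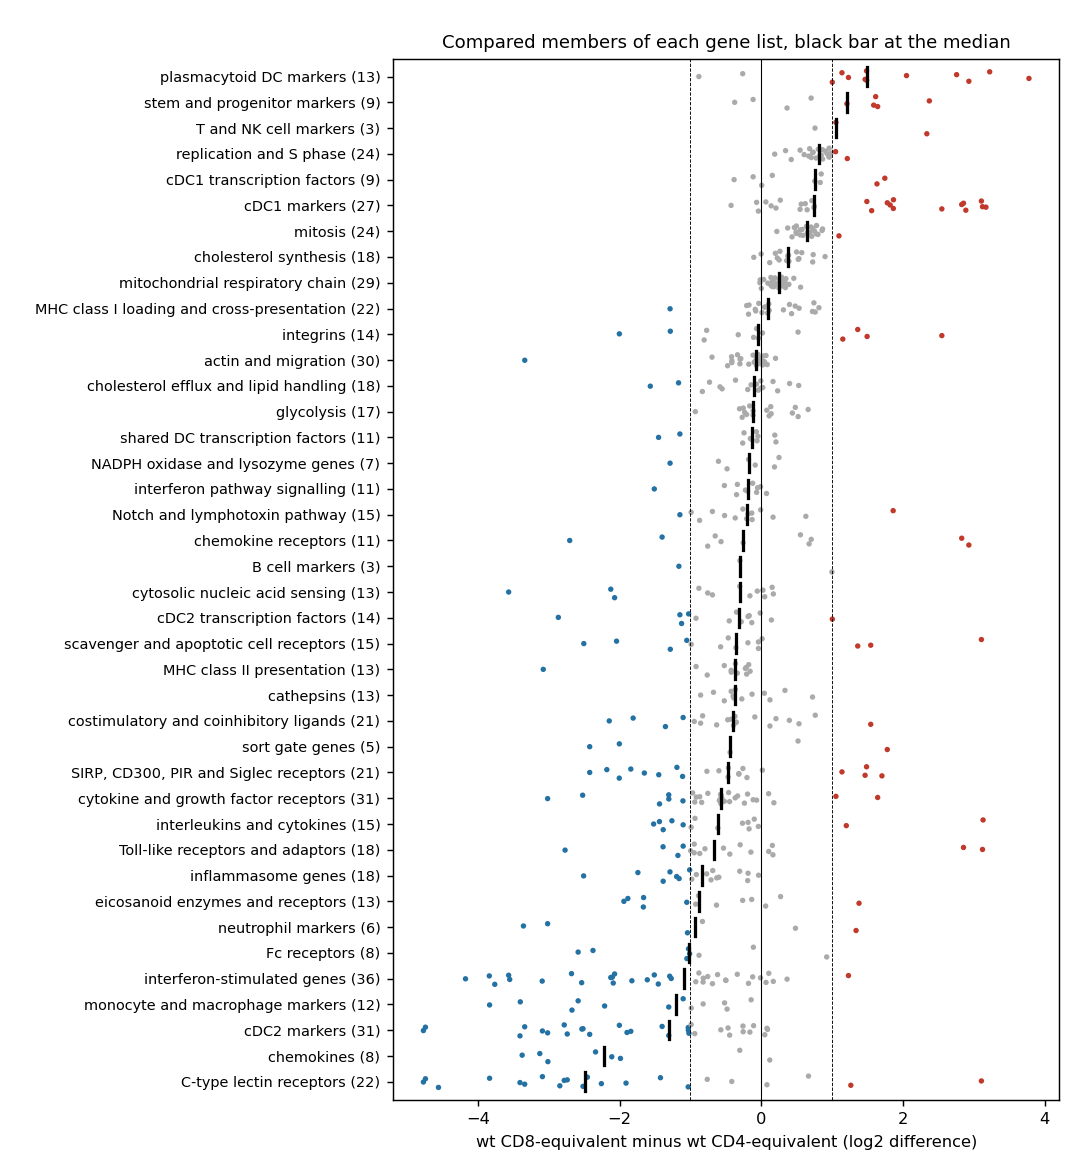
Log2 difference of each compared member (points) of the 40 lists with at least 3 compared members, wt CD8-equivalent minus wt CD4-equivalent, with the number of members in brackets. Red and blue points are at least 2-fold higher and lower, dashed lines mark 2-fold and a black bar the median. Medians run from -2.49 for C-type lectins to 1.49 for plasmacytoid markers, and members of the respiratory chain and of replication spread little around theirs.

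Markers of other cell types did not stand level on the 2 arrays. Plasmacytoid DC markers had the highest median of the lists, 1.49: of 13 compared, 11 were at least 2-fold higher in CD8-equivalent DCs and 0 lower, although B220-positive cells were gated out. Siglech, a receptor that defines plasmacytoid DCs in mice, read 9.88 and 11.34, the cytochrome oxidase subunit Cox6a2 8.58 and 11.34, Atp1b1 7.67 and 10.90, and Upb1 5.45 and 7.50. The plasmacytoid factors Spib (-0.26) and Irf7 (-0.88) did not share this direction, and Mzb1 was below the floor on both arrays (4.25 and 4.45). All 13 reached the floor on the CD8-equivalent array and 10 on the other. Several genes of the 15 highest, Ly6d, Atp1b1 and Ccr9, belong to this list. Monocyte and macrophage markers stood lower, with 7 of 12 at least 2-fold lower and a median of -1.20 (-0.67 over all 18 measured). They included the F4/80 gene Adgre1 (11.49 and 8.09), fibronectin Fn1 (-2.67) and Ms4a7 (-2.21), while lysozyme Lyz2 (-0.48), Apoe (-0.14) and C1qb (-0.52) were under 2-fold, and Cd163 and Mertk lay below the floor on both arrays.

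Few genes of the remaining cell types were expressed. Of 17 neutrophil markers, 6 were compared, and the granule genes Camp, Ngp, Ltf and Mpo lay below the floor on both arrays. The collagenase Mmp8 (8.48 and 5.12) and Csf3r were lower in CD8-equivalent DCs and the protease Prtn3 (1.34) was higher. The summed linear signal of the list was 1278 on the CD4- and 794 on the CD8-equivalent array. Of 13 T and NK cell markers only Nkg7 (2.34), Il7r and Cd5 (0.76) were compared, with Cd3d, Cd3e and Cd3g below the floor. Of 11 B cell markers only Cd22 (-1.16), Cd79b (-0.30) and Igll1 (1.00) were, with Pax5 and Cd79a below it. None of the 8 measured erythroid and megakaryocyte markers reached the floor, and of 12 mast cell, basophil and eosinophil markers only Siglecf did (-0.60).

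Some differing genes sat next to each other on the chromosome. Of 9978 compared genes with a position in the RefSeq order, 42 formed 11 runs of at least 3 consecutive compared genes that differed at least 2-fold the same way. Of these runs 10 were lower in CD8-equivalent DCs and 1 was higher. The longest, of 6 genes, held Ccl5, Ccl9, Ccl6, Ccl3, Wfdc17 and Wfdc18, from -1.42 for Wfdc17 to -3.38 for Ccl9. Clec4a1, Clec4a3, Clec4a4, Clec4b1 and Clec4a2 formed a run of 5 with 0 other genes between them, with differences from -2.78 to -4.74. Fcer2a, Clec4g, Cd209a, Cd209d and Cd209c formed another of 5. Runs of 4 were Oas2, Oas3, Oas1b and Oas1a, and Ms4a7, Ms4a4a, Ms4a4c and Ms4a4b.

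The runs of 3 were Fcgr2b, Fcgr4 and Fcgr3, the inflammasome genes Nlrp1a, Nlrp1b and Nlrp1c-ps, the receptors Cd300ld, Cd300c2 and Cd300e, and the transporter gene Abcg3 with the guanylate-binding Gbp8 and Gbp9. The lectin-like receptors Klri1 (9.95 and 6.82), Klri2 (-1.65) and Klra17 (-2.28) made a further one. The single higher run held the adhesion receptors Adgrg1 and Adgrg3 (5.92 and 8.60) and the ciliary gene Drc7 (4.69 and 6.77). Most runs consist of paralogs, whose probes can share sequence, so their members are not independent of each other. The plot of the runs shows that neighbours of 1 run differ widely in level. Their shared direction is part of how a run was defined.

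**Figure D4:**
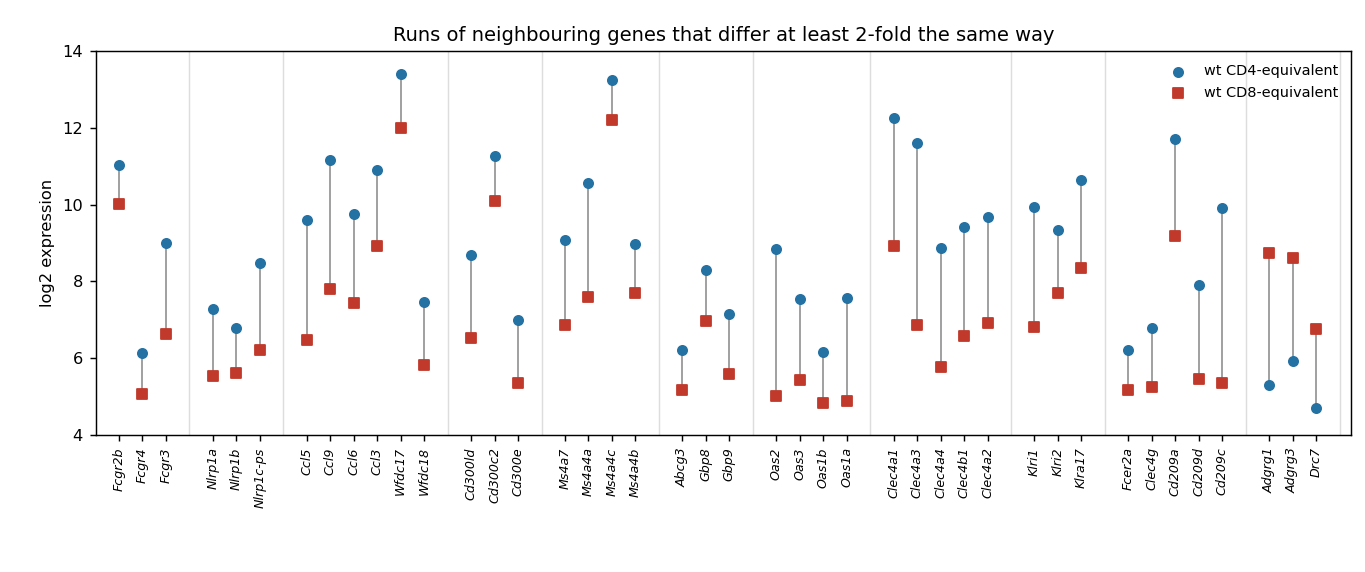
Log2 expression (y axis) of the 42 genes in the 11 runs, each column 1 gene in chromosomal order, with grey lines between runs. Blue circles are wt CD4-equivalent and red squares wt CD8-equivalent DCs. Only the last run, with Adgrg1, Adgrg3 and Drc7, is higher in CD8-equivalent DCs.

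The ko arrays give the same subset difference in RNA that shares no array with the wt pair, though all 4 arrays were normalised together and the genotype differs. Over all 9998 compared genes, 75.6% had the same sign in both pairs and the ko median was 0.11. In ko, 319 of them (3.19%) were higher by 2-fold or more and 373 (3.73%) lower. Of the 210 genes at least 2-fold higher in wt, 207 lay above 0 in ko and 112 (53.3%) were at least 2-fold higher there. Of the 314 lower genes, 306 lay below 0 in ko and 224 (71.3%) were at least 2-fold lower. The median of the higher genes was 1.39 in wt and 1.06 in ko, and that of the lower genes -1.45 and -1.40. Across genes, which are not independent replicates, Pearson's r of both differences was 0.80 and Spearman's rho 0.72. No gene passed 2-fold in opposite directions. The genotype and the variation between single arrays cannot be told apart in these values, and the difference between the pairs was not tested.

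List medians in ko kept the sign they had in wt for the groups given here. C-type lectins had a median of -1.72 in ko, interferon-stimulated genes -0.97, cDC2 markers -1.45 and chemokines -2.53. The medians of cDC1 markers (0.75 in wt and 0.35 in ko) and of plasmacytoid markers (1.49 in wt and 0.64 in ko) were smaller in ko. The median of monocyte and macrophage markers was -1.20 in wt and -2.95 in ko, where all 12 were at least 2-fold lower, and that of neutrophil markers was -0.94 and -2.88. The wt neutrophil median rests on 6 genes, of which 2 reached the floor on the wt CD8-equivalent array. With the floor on both values it was 0.91. Replication genes had a median of 1.14 in ko, with 19 of 24 at least 2-fold higher. Single genes with the widest gap between the pairs included Clec9a, which read 7.78 in wt but 10.85 in ko CD4-equivalent DCs. Il18rap differed by -2.52 in wt and 0.85 in ko, Cd209c by -4.56 and -1.66, and the fatty acid receptor Ffar2 by -2.97 and -0.64. On the other side, the granule gene Lcn2 differed by -0.83 and -4.78, the complement genes C1qb by -0.52 and -3.92 and C3ar1 by -1.05 and -4.45, and the calprotectin gene S100a8 by -1.04 and -4.40. The tetraspanin gene Cd81 was even in wt (-0.10) and 1.93 higher in ko, and Drc7 differed by 2.08 and 4.17. The summed neutrophil signal was 4689 in ko CD4-equivalent DCs against 1278 in wt, and the summed macrophage signal was 6349 in ko CD8-equivalent DCs against 12352 in wt. Their part in the gaps of Lcn2, S100a8, C1qb and C3ar1 was not tested.

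**Figure D5:**
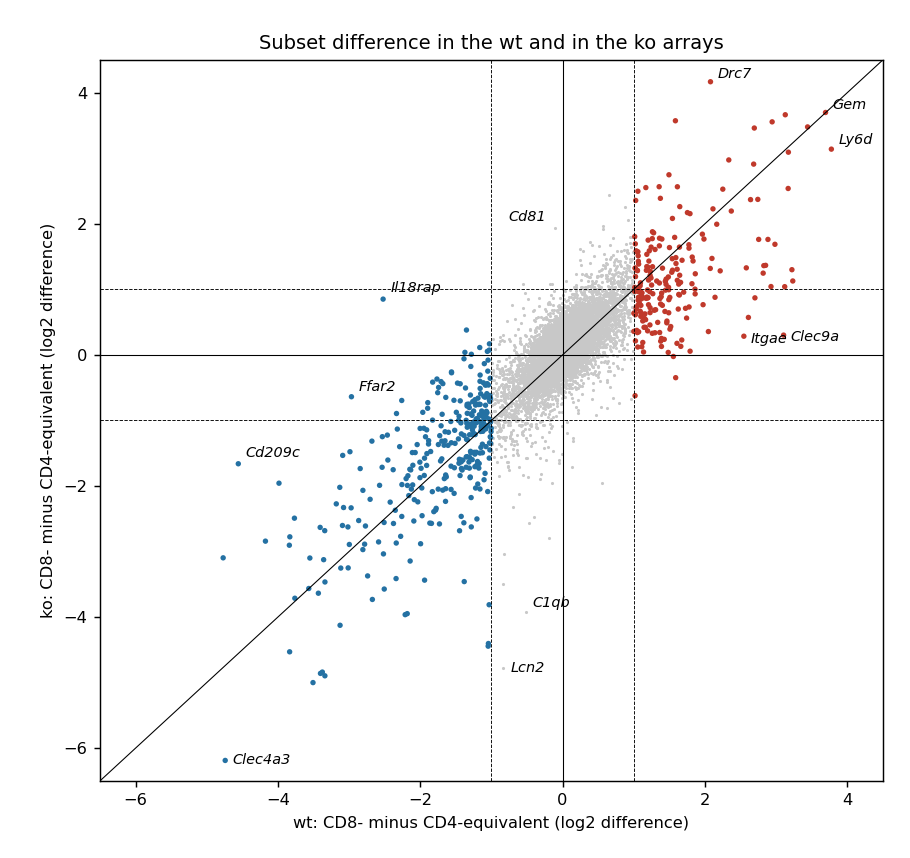
Subset difference (CD8-equivalent minus CD4-equivalent, log2) in wt on the x axis and in ko on the y axis for the 9998 compared genes. Red and blue points are at least 2-fold higher and lower in wt, the diagonal marks equal differences and dashed lines 2-fold. Nearly all coloured points keep their sign in ko, and Il18rap lies on the other side of 0.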

How the data were processed

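RNA of 4 sorted DC samples, 1 per genotype and subset, was hybridised as biotin-labelled material to Affymetrix arrays, per the labels' protocols. Each probe set has 1 deposited log2 value per array, made with RMA and Partek per the submitters' processing notes, which give no versions. The log base was inferred from the range of 3.52 to 14.3. RMA corrects background and quantile-normalises arrays together. The annotation used by the authors is not given in the sources used here. The platform annotation of 2016 gave 21789 of 35399 probe sets 1 gene symbol, 1621 several symbols, and left the rest unnamed here. Of those with 1 symbol, 21698 matched RefSeq by gene ID.

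Where a gene had more than 1 probe set (999 genes), the brightest by its mean was taken. The difference of the log2 values of both wt arrays was taken, with no test, and called at 2-fold. The number of arrays limits the precision, and p-values were not computed. Genes of 42 lists were written from textbook knowledge. The members, lists and rules were chosen with earlier results of these data known. Genes were named by these rules: the 15 largest differences each way, the sort genes, the largest and smallest differences and defining members of each list, neighbours of thresholds, members of runs, and the widest gaps between wt and ko. Promoters of 250 bases before to 50 after a start came from RefSeq (8083 compared genes matched by gene ID). Cyclic loess and renewed quantile normalisation used limma 3.58.1 in R 4.3.3 and all else Python 3.11.15 with pandas 2.3.3. The counting script was tested on simulated data. Alternatives were other normalisations, floors, probe set rules, fold thresholds and motif groups.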

Additional observations from a re-analysis of the deposited data

Results flagged for a closer look

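Of the 524 genes at least 2-fold different in wt, 11 had the opposite sign in ko, with CD8-equivalent minus CD4-equivalent differences given here as wt and then ko. None passed 2-fold in ko, the differences between the pairs were not tested, and with 1 array a group each sign rests on single values.

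Of the 8 genes lower in wt CD8-equivalent DCs, the IL-18 receptor subunit Il18rap had the largest ko value, at -2.52 and 0.85. The interferon-induced GTPase gene Gbp8 differed by -1.35 and 0.38, and the neighbouring Gbp9, which kept its sign, by -1.56 and -0.27. The microRNA gene Mir340 differed by -1.03 and 0.17. The B cell receptor regulators Cd22 (-1.16 and 0.11) and Bank1 (-1.28 and 0.0095) were both lower in wt and nearly even in ko. The complement-linked receptor Cd93 (-1.03 and 0.074), Gm13570 (-1.06 and 0.054) and the epithelial factor Ehf (-1.37 and 0.039) were also nearly even in ko.

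Of the 3 genes higher in wt, Gm6377 differed by 1.02 and -0.62, Gm11545 by 1.59 and -0.35, and the sulfotransferase Sult1a1, a cDC1 marker, by 1.56 and -0.024.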

How the results depend on the processing

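The counts of 210 higher and 314 lower genes stayed within 1.5 times under median centring, cyclic loess, renewed quantile normalisation, both other probe set rules, no floor, and the floor on both values. With the floor at the upper quartile they were 90 and 151, a setting that compares fewer genes. Over all probe sets, named or not, 544 were lower. Of the genes past 2-fold, 21 had several probe sets. The other probe sets shared the sign for all 21, but for 10 of these genes alone did all of them pass 2-fold. For Clec4g, a member of a run, the other probe set differed by -0.18 and lay below the floor, and for Tapt1 it differed by 0.15 against 1.02. The share of lower calls among genes past 2-fold ran from 56.0% to 62.7% over the settings that count genes, against 59.9%. With a log2 difference of 0.5 in place of 1, the 11 runs of neighbours became 45. In the 4-fold groups the interferon element was held by 0 of the higher and 19.7% of the lower genes, and the PU.1-IRF element by 0 of the higher genes. The 35 genes checked were the 15 largest differences each way and the sort genes. Neither probe set rule changed their values and median centring shifts all genes alike, so these settings are no check of single genes. In all 175 combinations of gene and setting the 35 genes kept their direction. They moved by less than 0.36, the standard deviation over genes of the wt minus the ko difference. For the medians of 40 lists, 303 combinations of list and setting moved by less than that and 15 by more, all 15 under a changed floor. The neutrophil median turned from -0.94 to 0.91 with the floor on both values, which leaves fewer genes. No paired analysis was possible because each group has 1 array and the labels carry no replicate numbers. Depth of signal could not be judged, as no detection calls were used here.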

Other observations

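Some gene families that have no list of their own also differed between the wt subsets, and some of their members stand on lists above. They were picked after their values were seen, so they carry no test. All members of a family were counted, except for the serine, one-carbon and ATF4-linked genes. Those were a hand-written list of 18 measured genes, also chosen after values were seen, and the list is not exhaustive. Among 17 compared genes of serine and one-carbon metabolism with the ATF4-linked genes around them, 15 lay above 0 and 6 were at least 2-fold higher in CD8-equivalent DCs, with a median of 0.70 in wt and 0.50 in ko. The serine synthesis enzyme Phgdh was 1.36 higher and its successor in the pathway, Psat1, 1.17 higher. The cysteine-forming Cth (1.26), the mitochondrial folate enzyme Aldh1l2 (1.13), the glutathione-degrading Chac1 (1.06) and Trib3 (1.03) followed. The stress factor Ddit3 (-0.19), Sesn2 (-0.14) and the cystine transporter Slc7a11 (0.01) did not share the direction.

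Of 7 compared Ms4a genes, 6 were at least 2-fold lower in CD8-equivalent DCs, with a median of -2.08. Of 4 compared Cyp4f genes, which encode omega-hydroxylases of fatty acids and leukotrienes, 3 were: Cyp4f18 (-1.97), Cyp4f37 (-1.77) and Cyp4f16 (-1.70). Of 7 compared Abca genes, 3 were at least 2-fold lower, the lipid transporter genes Abca6 (-3.18), Abca9 (-2.35) and Abca1 (-1.17), while Abca5 was 0.59 higher. Paralogs of these families can share probes. Immediate-early genes were uneven, with Fosl2 (-2.03), Egr2 (-1.69), Jun (-1.64) and Nr4a3 (-1.45) lower and Fos (-0.32), Egr1 (-0.04) and Nr4a1 (-0.06) under 2-fold. At least 2-fold lower were 2 of 6 compared Fos and Jun genes, 1 of 3 Egr genes and 1 of 3 Nr4a genes, and 0 were higher.

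Adhesion G-protein-coupled receptors lay at both ends. Adgrg1 (3.44) and Adgrg3 (2.69) were higher, Adgre1 (-3.40) and Adgre4 (-2.99) lower, and the other 5 of 9 compared were under 2-fold.

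Probe sets without a name behaved differently from named ones. Of 7257 unnamed probe sets that reached the floor, 193 were lower in wt CD8-equivalent DCs by 2-fold or more and 36 higher, against 330 and 224 of 11113 with 1 symbol. The 193 had a median of -1.18 in wt and 0.0093 in ko, and 27 of them were at least 2-fold lower in ko too. For the 330 lower probe sets with 1 symbol the medians were -1.44 and -1.36, and 228 were at least 2-fold lower in ko too. Unnamed probe sets enter only the count over all probe sets given with the alternatives.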
